A study of Mus musculus with 8 samples.

Results

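The genes described here encode secreted messengers and proteins of the inflammatory response, measured in mouse cells during incomplete reprogramming. They are the cytokine Il6, the chemokines Ccl2, Ccl7, Cxcl1 and Cxcl5, the acute-phase genes Lcn2, Saa3 and C3, and the prostaglandin synthase gene Ptgs2. They were chosen by name, and a gene with several probe sets was to be read from the one with the highest mean. Of the 9 genes, 8 matched a probe set with a single gene symbol, 1 probe set each, among 19938 genes in all, and C3 was not analysed here. The mean had therefore no part in the choice.

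The cells were a clone of pre-iPSCs, named MaF pre-iPSC9P2 in the labels, that is, cells on the way to induced pluripotent stem cells that had not completed it. They were kept on feeder cells in mESC medium, untreated or with vitamin C (Vc) at 50 µg/ml from day 2, the day after plating. RNA was taken on days 3, 4, 5 and 6 after trypsin treatment and removal of the feeder cells, 1 array for each treatment and day, 4 arrays untreated and 4 with vitamin C. All arrays come from 1 clone, and no label says whether each day was its own culture, so a p-value here reflects no more than how far these arrays spread, and that spread may be technical.

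Inflammatory stimuli act through receptors on the cell surface and switch on transcription factors of the NF-kappaB, C/EBP and AP-1 families, which bind short motifs near their target genes. The targets include cytokines that signal to neighbouring cells, chemokines that attract white blood cells, and acute-phase proteins that were first known from the liver. Fibroblasts are a well known source of Il6, Ccl2 and Cxcl1 in culture, and mouse embryonic stem cells are known for a weak inflammatory response.

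The stretches just before the start sites of 4 of the genes are shown because they hold the motifs through which inflammatory genes are known to be switched on. They are the 250 bases before the start in RefSeq (build GRCm38.p6), which had an entry for 5 of the 8 measured genes. They lie at chr5:30012864-30013113 on the plus strand for Il6, chr5:90890995-90891244 on the plus strand for Cxcl1, chr2:32387740-32387989 on the minus strand for Lcn2 and chr7:46715677-46715926 on the minus strand for Saa3. Each is written 5′ to 3′ on the strand of its gene, with motif matches in capitals.
Il6: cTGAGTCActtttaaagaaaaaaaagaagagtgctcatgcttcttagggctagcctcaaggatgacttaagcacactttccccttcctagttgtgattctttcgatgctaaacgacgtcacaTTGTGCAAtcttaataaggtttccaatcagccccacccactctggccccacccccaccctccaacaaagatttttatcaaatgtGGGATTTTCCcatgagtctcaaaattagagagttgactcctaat
Cxcl1: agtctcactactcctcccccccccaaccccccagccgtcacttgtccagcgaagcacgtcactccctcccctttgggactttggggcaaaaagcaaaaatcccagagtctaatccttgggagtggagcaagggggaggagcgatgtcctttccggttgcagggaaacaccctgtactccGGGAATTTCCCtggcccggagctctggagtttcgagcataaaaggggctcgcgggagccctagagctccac
Lcn2: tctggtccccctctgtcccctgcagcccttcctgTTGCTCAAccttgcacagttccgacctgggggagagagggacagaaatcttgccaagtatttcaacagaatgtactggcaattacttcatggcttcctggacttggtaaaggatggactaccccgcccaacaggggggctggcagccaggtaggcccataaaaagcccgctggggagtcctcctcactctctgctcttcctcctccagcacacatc
Saa3: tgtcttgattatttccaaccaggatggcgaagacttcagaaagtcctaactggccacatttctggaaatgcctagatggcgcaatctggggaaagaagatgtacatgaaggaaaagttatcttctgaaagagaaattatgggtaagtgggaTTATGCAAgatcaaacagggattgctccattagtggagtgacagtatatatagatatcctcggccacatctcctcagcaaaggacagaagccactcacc

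Both strands were searched for the NF-kappaB consensus, for TTGCNNAA (C/EBP) and for TGANTCA (AP-1). The NF-kappaB match GGGATTTTCC began 44 bases before the Il6 start, and in Cxcl1 matches on both strands overlapped from 71 bases before the start. Of all 32851 windows of this length 3.9% held that motif. A C/EBP match lay in the windows of Il6, Lcn2, Saa3 and Ptgs2, the last being TTGCGCAA at 69 bases before the start, against 9.56% of all windows. An AP-1 match lay in that of Il6, against 6.75%. A match of letters is a description and not a binding site.

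Without vitamin C the fitted change per day was below 0 for all 8 genes, against 48.4% of all genes. For 6 of the 8 the decline with day passed the test (limma, adjusted p under 0.05), against 0.968% of all genes. These 6 were at least 2-fold lower on day 6 than on day 3, from 2.40-fold (Saa3) to 6.71-fold (Ccl2), against 1.16% of all genes. Results of these arrays were known when the genes were chosen, and only Ccl2 kept its call without the untreated array of day 6. On day 3 all 8 had a lower value with vitamin C than without, against 47.2% of all genes. Over the days with vitamin C 3 of the 8 fell, Il6, Ccl2 and Ccl7, against 3.39% of all genes. On day 6 the treatments lay close together for Il6, Cxcl1 and Cxcl5, and Lcn2 lay 2.30-fold higher with vitamin C. Il6 and Ptgs2 had a lower value with vitamin C on each day, against 11.1% of all genes. The change over days passed in neither treatment for Cxcl1 and Ptgs2. In bulk RNA, fewer cells of a type and less RNA per cell cannot be told apart.

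**Figure D1:**
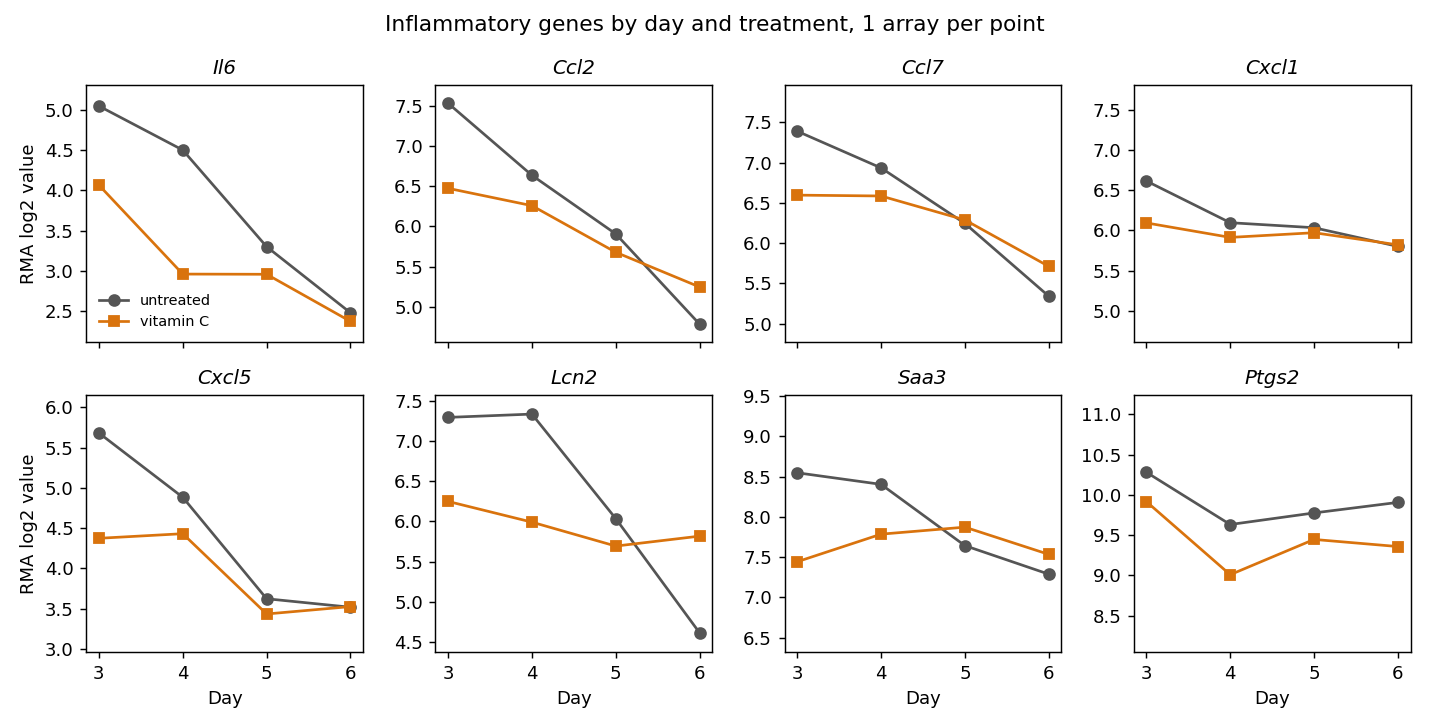
Each panel plots the RMA log2 value of 1 gene (vertical axis, the same span of 3.2 log2 units in every panel) against the day, with 1 array per point, circles for untreated cells and squares for vitamin C. The untreated lines of Il6, Ccl2, Ccl7, Cxcl5 and Lcn2 run down steeply, the vitamin C lines start lower, and by day 6 the lines are within 0.11 of each other or have crossed except for Ptgs2.

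Il6 encodes interleukin 6, which signals through its receptor and the shared chain Il6st to the transcription factor Stat3. Its log2 values without vitamin C were 5.05, 4.50, 3.30 and 2.48 on days 3 to 6, and with vitamin C 4.07, 2.96, 2.96 and 2.37. It was lower with vitamin C on each day, while the groups overlapped over the 4 days. It was 2.91-fold lower on day 4 and 1.08-fold lower on day 6. The change per day was -0.89 ± 0.09 (log2, moderated SE, adjusted p = 0.00197 in limma) without vitamin C. With vitamin C it was -0.51 ± 0.09 (adjusted p = 0.00902). The 25th percentile of the mean levels of all genes was 3.19, so the late Il6 values are low ones, where arrays tend to understate a fold change.

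Ccl2 and Ccl7 encode chemokines that attract monocytes, and both genes are on chromosome 11. Ccl2 had log2 values of 7.53, 6.64, 5.91 and 4.79 without vitamin C on days 3 to 6. With vitamin C they were 6.47, 6.26, 5.68 and 5.25, so that the untreated array was highest on day 3 and lowest on day 6. This is a 6.71-fold lower level on day 6 than on day 3 without vitamin C, and a 2.34-fold lower one with it. The change per day was -0.90 ± 0.06 (adjusted p = 0.000784) and -0.43 ± 0.06 (adjusted p = 0.00381).

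Ccl7 had log2 values of 7.39, 6.93, 6.24 and 5.34 without vitamin C and 6.60, 6.59, 6.29 and 5.71 with it. The lines crossed at day 5, where the arrays differed by 0.04. Its change per day was -0.68 ± 0.07 (adjusted p = 0.00269) without and -0.30 ± 0.07 (adjusted p = 0.0369) with vitamin C. Both are close in sequence to other chemokine genes, and how far their probes tell these apart is uncertain.

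Cxcl1 and Cxcl5 encode chemokines that attract neutrophils through the receptor Cxcr2, and both genes are on chromosome 5. Cxcl5 had log2 values of 5.68, 4.88, 3.62 and 3.52 without vitamin C, and 4.37, 4.43, 3.43 and 3.52 with it. Its difference on day 3, a 2.48-fold lower level with vitamin C, was gone on day 6. Both values of day 6 were low beside the median of the mean levels of all genes (4.70), where a difference may be understated. Its change per day was -0.78 ± 0.11 (adjusted p = 0.00801) without and -0.35 ± 0.11 (adjusted p = 0.0765) with vitamin C.

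The log2 values of Cxcl1 were 6.62, 6.10, 6.03 and 5.80 without and 6.09, 5.91, 5.97 and 5.82 with vitamin C, so that the untreated array of day 3 stood above the others. Neither change per day passed, with -0.25 ± 0.06 (adjusted p = 0.0831) and -0.08 ± 0.06 (adjusted p = 0.508). The Cxcl1 window shown above holds the NF-kappaB match as the Il6 window does.

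Lcn2 encodes lipocalin 2, which binds bacterial iron carriers, and Saa3 a serum amyloid A protein made outside the liver in mice. Lcn2 had log2 values of 7.29, 7.33, 6.03 and 4.61 without vitamin C, high on days 3 and 4 and then much lower. With vitamin C they were 6.25, 5.99, 5.69 and 5.82, a nearly level course. Lcn2 fell without vitamin C, with -0.93 ± 0.13 per day (adjusted p = 0.00568), and had -0.16 ± 0.13 (adjusted p = 0.476) with it. The difference between treatments turned from a 2.54-fold lower level with vitamin C on day 4 to a 2.30-fold higher one on day 6.

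Saa3 had log2 values of 8.55, 8.40, 7.64 and 7.29 without vitamin C and 7.44, 7.78, 7.87 and 7.53 with it. It was 2.15-fold lower with vitamin C on day 3 and 1.19-fold higher on day 6. The change per day was -0.45 ± 0.08 (adjusted p = 0.0216) without and 0.04 ± 0.08 (adjusted p = 0.824) with vitamin C. Saa3 too has near copies in the genome, and its probes may read some of them. The windows of Lcn2 and Saa3 both hold the C/EBP match and no NF-kappaB or AP-1 match.

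Ptgs2 encodes the inducible cyclooxygenase that makes the precursor of prostaglandins. Its log2 values were 10.28, 9.63, 9.78 and 9.91 without vitamin C and 9.92, 9.01, 9.45 and 9.36 with it. Both treatments were highest on day 3 and lowest on day 4, and vitamin C minus untreated was -0.36, -0.62, -0.33 and -0.55 on days 3 to 6. Neither change per day passed, with -0.10 ± 0.12 (adjusted p = 0.73) without and -0.12 ± 0.12 (adjusted p = 0.553) with vitamin C.

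Of all 19938 genes, 0.968% fell with day without vitamin C, 0.782% rose and 1.75% changed in either direction, beside the 6 of 8 that fell. The median change per day was -0.73 over the 8 genes and 0.00 over all genes. At least 2-fold lower on day 6 than on day 3 were 6 of the 8, against 1.16% of all genes, and lower at each step from day to day were 6, against 9.52%. Lcn2 was among the former 6 only, and Cxcl1 among the latter 6 only. The genes were chosen with results of these arrays known, so these counts describe them and do not test them. Only Ccl2 passed when the untreated array of day 6 was left out (-0.81 per day, adjusted p = 0.045, against adjusted p from 0.088 to 0.501 for the other 5 that had passed). Without the untreated array of day 3, Cxcl5 and Saa3 no longer passed (adjusted p = 0.194 and 0.155), and without that of day 4 Saa3 did not (adjusted p = 0.0508).

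With vitamin C, 3 of the 8 fell, against 3.39% of all genes that fell and 8.64% that changed. The median change per day was -0.23 over the 8 genes and -0.02 over all genes. Of all genes 1046 rose and 676 fell with vitamin C, and with each array centred on its median 942 rose and 930 fell. At least 2-fold lower on day 6 than on day 3 were 2 of the 8, against 1.35% of all genes. None of the 8 passed without the vitamin C array of day 6, with adjusted p = 0.111 for Il6, 0.105 for Ccl2 and 0.537 for Ccl7, and Ccl2 alone passed without that of day 3. Ccl7 also missed the threshold, by little, without the untreated array of day 4 or 5 or the vitamin C array of day 4 (adjusted p from 0.0513 to 0.0545).

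**Figure D2:**
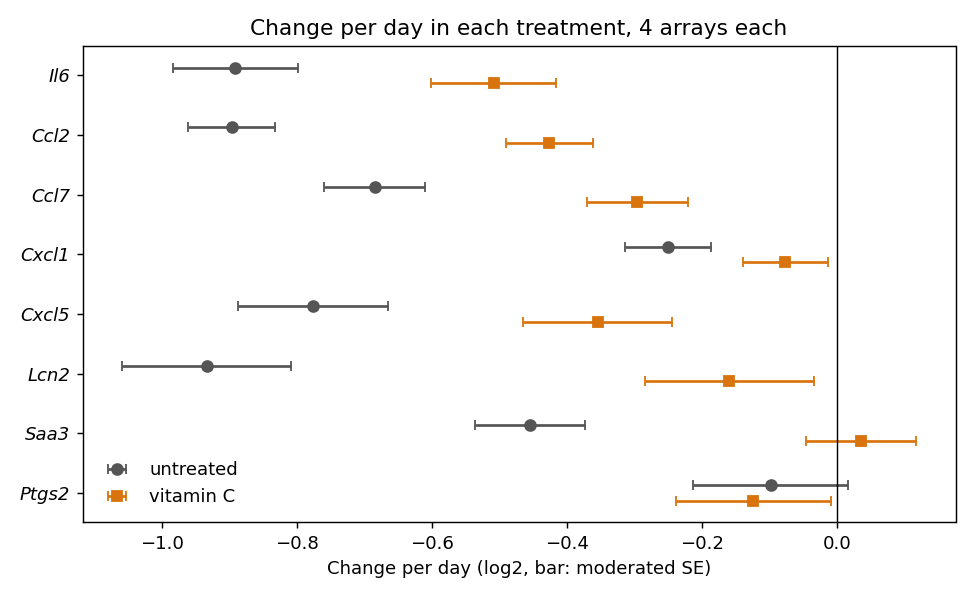
The change per day in log2 units (horizontal axis, bars are moderated standard errors) is plotted for each gene, circles for the 4 untreated arrays and squares for the 4 arrays with vitamin C. The untreated changes of Il6, Ccl2, Ccl7, Cxcl5 and Lcn2 lie between -0.93 and -0.68, and those with vitamin C lie between -0.51 and 0.04 for all 8 genes.

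Over all 4 days together, none of the 8 genes passed the test of the vitamin C difference, in which day is a factor. All 8 lay below 0, against 51.8% of all genes, with a median of -0.35 against -0.01 over all genes. In limma 0.752% of all genes passed, with 0.537% of all genes higher and 0.216% lower with vitamin C. The nearest was Ptgs2 with -0.47 ± 0.11 (adjusted p = 0.0952), whose daily differences had an SD of 0.14. Il6 followed with -0.74 ± 0.21 (adjusted p = 0.171) and Cxcl5 with -0.49 ± 0.19 (adjusted p = 0.336). These 3 had an unadjusted p under 0.05, as had 2531 of all 19938 genes. With trend and robust options in eBayes, Ptgs2 passed (adjusted p = 0.00922).

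The other 5 had smaller differences beside their error, from -0.38 ± 0.34 for Lcn2 to -0.18 ± 0.18 for Ccl7 (adjusted p from 0.597 to 0.745). In no gene of the 8 were the untreated and the vitamin C arrays fully apart, against 4.71% of all genes.

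Single days have 1 array per treatment and no test. On day 3 all 8 genes were lower with vitamin C, with a median of -1.01, against 47.2% of all genes. At least 2-fold lower were 4 of them, Ccl2, Cxcl5, Lcn2 and Saa3, against 0.301% of all genes, and Il6 was 1.98-fold lower. On day 4 all 8 were lower with a median of -0.54, against 49.6% of all genes, and Il6 and Lcn2 were the 2 that were at least 2-fold lower, against 0.451% of all genes. On day 5 the median was -0.21 and 6 were lower, against 53.5%. On day 6 it was 0.13 and 2 were lower, Il6 and Ptgs2, against 55.4%. The 6 others were lower on day 3 and higher on day 6 with vitamin C, against 21.2% of all genes, while Il6 and Ptgs2 were lower on all 4 days, against 11.1%.

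**Figure D3:**
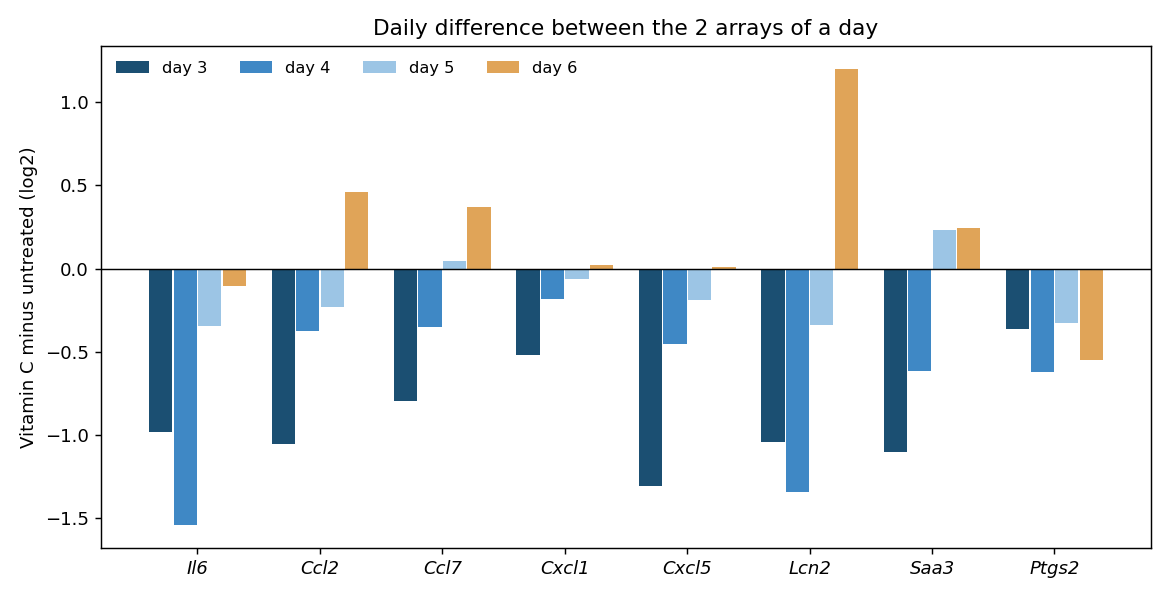
Bars give the log2 value with vitamin C minus the untreated value (vertical axis) for each gene on days 3, 4, 5 and 6, each from 2 arrays and without an error. On day 6 the bars are shorter than on day 3 or point upwards in 7 genes, while those of Ptgs2 stay between -0.62 and -0.33. The bars of Il6 and Lcn2 reach furthest down on day 4.

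The change of this difference with day was tested as the interaction of treatment and day. None of the 8 passed over all genes, where 0.0652% did, all 13 upwards. It was above 0 for 7 of the 8, against 44.9% of all genes, with a median of 0.41 per day against -0.02. The estimates were 0.77 ± 0.18 for Lcn2 (adjusted p = 0.169), 0.49 ± 0.11 for Saa3 (adjusted p = 0.171) and 0.47 ± 0.09 for Ccl2 (adjusted p = 0.126). They were 0.42 ± 0.16 for Cxcl5, 0.39 ± 0.11 for Ccl7, 0.38 ± 0.13 for Il6, 0.17 ± 0.09 for Cxcl1 and -0.03 ± 0.16 for Ptgs2, with adjusted p-values from 0.213 to 0.972.

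An unadjusted p under 0.05 was found for 6 of the 8, all but Cxcl1 and Ptgs2, and for 2244 of all 19938 genes. With the arrays of a day paired in that model, 20 genes in all passed in place of 13, and none of the 8 did (adjusted p from 0.124 to 0.942). With trend and robust options Ccl2 (adjusted p = 0.0396) and Saa3 (adjusted p = 0.0473) passed.

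Of 24 feeder or fibroblast markers, 12 fell without vitamin C, against 0.968% of all genes, and 12 did not pass. Their median change per day was -0.39, against 0.00 over all genes. With vitamin C 9 fell, against 3.39% of all genes, with a median of -0.20 against -0.02, and 15 did not pass. The mean log2 level of these markers ran from 7.46 on day 3 to 6.38 on day 6 without vitamin C, and from 6.88 to 6.28 with it. Their mean difference with vitamin C was -0.58, -0.65, -0.38 and -0.09 on days 3 to 6, beside -0.90, -0.69, -0.15 and 0.21 for the mean of the 8 inflammatory genes. None of the markers fell in the test without the day 6 array of the treatment in question, and 1 did without the vitamin C array of day 3. Over all days 3 of the 24 were lower with vitamin C, against 0.216% of all genes, with a median of -0.38, and 0 without day 4 or day 5. These 3 were Lox, Fbln2 and Col5a2, named after their values were seen. Their part in the inflammatory result was not tested.

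Among these markers the collagen gene Col1a1 changed by -0.52 ± 0.07 per day (adjusted p = 0.00431) without and by -0.32 ± 0.07 (adjusted p = 0.0142) with vitamin C. The surface marker Thy1 fell without vitamin C (-0.37 ± 0.07, adjusted p = 0.0292). No marker on the list was listed at 0, and the lowest value was 2.27. Fibroblast genes are also expressed by cells that have not completed reprogramming, so the list does not separate those from feeder cells.

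The 15 macrophage or blood markers had a mean level between 3.57 and 3.81 in every array. Ptprc, the common antigen of white blood cells, stayed between 2.56 and 3.30. None passed in the change per day without vitamin C in limma, where 2 had an unadjusted p under 0.05. With it 2 of the 15 rose, Csf1r (1.09 per day) and Cd68 (0.79 per day), against 5.25% of all genes. Another 2 of the 15 fell with vitamin C, Laptm5 and Mpeg1, against 3.39% of all genes. Of 10 endothelial markers, 1 fell with vitamin C, Tek, against the same 3.39%, and 9 did not pass. The choice to name Csf1r, Laptm5, Mpeg1 and Tek was also made after seeing their values.

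Of 10 pluripotency markers, 3 rose with day without vitamin C, against 0.782% of all genes, and 7 rose with it, against 5.25%. Pou5f1, a defining gene of pluripotent cells, did not pass in either and was between 11.93 and 12.11 in all arrays. Nanog, another such gene, rose from 5.53 to 6.77 without and from 7.03 to 8.87 with vitamin C. It was the 1 of the 10 that passed the test over days, against 0.537% of all genes that were higher with vitamin C. Sox2, also such a gene, was the 1 of the 10 that passed the interaction (0.85 ± 0.12 per day, adjusted p = 0.0391), against 0.0652% of all genes. It is named after its values were seen.

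**Figure D4:**
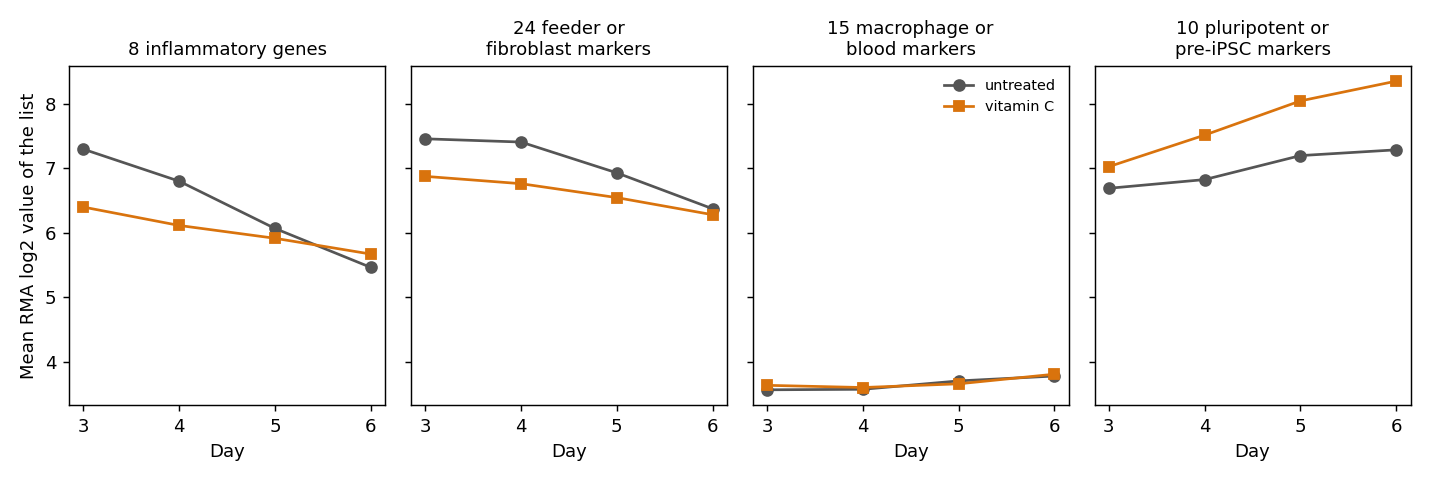
The mean RMA log2 value of 4 gene lists (vertical axis) is plotted against the day, circles for untreated cells and squares for vitamin C, 1 array per point, and levels are to be compared within a panel only. The means of the inflammatory genes and of the feeder or fibroblast markers are lower on day 6 than on day 3, the macrophage or blood markers stay between 3.57 and 3.81, and the mean of the pluripotency markers is higher on day 6 than on day 3 in both treatments.

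Beyond the 8 genes, 125 genes of the same response were examined in 6 lists, of which 115 were measured. Without vitamin C 11 fell (9.57%, against 0.968% of all genes), 0 rose and 104 did not pass. With vitamin C 4 rose (3.48%, against 5.25% of all genes), 4 fell (3.48%, against 3.39%) and 107 did not pass, which is near the share over all genes. Over the 4 days 2 were higher with vitamin C, Cxcl16 and Tlr2, against 0.537% of all genes. Without day 3, 1 of the 115 was higher and 1 lower, and none passed without day 4, 5 or 6. In the interaction none passed in limma, and 19 of 115 had an unadjusted p under 0.05, against 2244 of all 19938 genes. Their median change per day was -0.03 in both treatments, close to that of all genes. Without the untreated array of day 6 none of the 115 passed in the untreated change, and without that of day 3, 3 did. Without the vitamin C array of day 6, 1 passed in the vitamin C change, and without that of day 3, 3 did. In the same arrays 12 of 24 feeder or fibroblast markers fell without and 9 of 24 with vitamin C, against 0.968% and 3.39% of all genes.

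Among 15 other cytokines, Csf1, the growth factor of macrophages, fell without vitamin C (-0.53 ± 0.06 per day, adjusted p = 0.00276). Its level went from 7.35 (day 3) to 5.72 (day 6). With vitamin C it was 6.35 and 6.06 on those days, a change of -0.10 per day that did not pass. Il1a, an alarm cytokine, rose with vitamin C (0.29 ± 0.07 per day, adjusted p = 0.0254). Its log2 values in the vitamin C arrays were low, 2.32, 2.64, 2.69 and 3.26 in order of day. The Il1a mean over both treatments, 2.54, lay under the 25th percentile of the mean levels of all genes (3.19). Whether so dim a signal reflects induction of Il1a was not tested. Tnf, a principal inducer of these genes, did not pass, with 0.24 and 0.23 per day without and with vitamin C. Tslp had -0.26 per day without vitamin C, Csf3 0.14, and with vitamin C Il11 had -0.22, Csf2 -0.13 and Il33 0.24, none of which passed. The largest differences over days were -0.44 for Il18, -0.39 for Il11, 0.38 for Il1a and 0.42 for Il33, and none passed.

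Among 20 measured other chemokines, Ccl5, which attracts T cells, fell without vitamin C (-0.57 ± 0.08 per day, adjusted p = 0.00826). Cxcl14 fell with vitamin C (-0.41 ± 0.06 per day, adjusted p = 0.00476). Cxcl16, a chemokine anchored in the membrane, was higher with vitamin C over the 4 days by 1.09 ± 0.17 (adjusted p = 0.033). Its values were 5.18, 4.82, 4.99 and 5.40 without and 5.63, 5.88, 6.66 and 6.57 with vitamin C, and the groups did not overlap. With vitamin C it rose with day (0.36 ± 0.09, adjusted p = 0.0384). Ccl9 (-0.25), Cxcl13 (0.18) and Cxcl15 (0.15) in the untreated change, Cxcl10 (0.34) and Ccl5 (-0.27) in the vitamin C change, and Ccl17 (0.13), Ccl5 (-0.34) and Cxcl14 (-0.69) over days did not pass.

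Among 20 measured receptors and adaptors, Il1rap, the accessory chain of the interleukin 1 receptor, fell in both treatments, by -0.48 and -0.40 per day. Tlr4, the receptor of bacterial lipopolysaccharide, fell without vitamin C (-0.52 ± 0.07, adjusted p = 0.00752), from 3.99 to 2.44. That day 6 value is a dim one, under the 25th percentile of the mean levels of all genes (3.19). The adaptor gene Myd88 fell with vitamin C (-0.31 ± 0.08, adjusted p = 0.0323). Tlr2, a receptor of bacterial lipoproteins, was higher with vitamin C over the days by 0.65 ± 0.11 (adjusted p = 0.0351). Of the genes with the largest changes that did not pass, Il6st and Il1rap had -0.38 and Cxcr2 0.14 over days. Slc22a17 and Traf2 had 0.13 and 0.14 per day without vitamin C, and Slc22a17 and Ticam1 0.20 and 0.11 with it.

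The 22 measured regulators showed little shift, with a median of 0.01 per day without and 0.02 with vitamin C. Vcam1, an adhesion molecule and target of NF-kappaB, fell without vitamin C (-0.57 ± 0.08, adjusted p = 0.00693), as did Nfkbiz, a nuclear cofactor of NF-kappaB (-0.33 ± 0.06, adjusted p = 0.0272). With vitamin C Nfkbia, the inhibitor of NF-kappaB, rose (0.44 ± 0.10, adjusted p = 0.0228) and Bcl3 fell (-0.36 ± 0.07, adjusted p = 0.0134). Rela, a subunit of NF-kappaB, did not pass, with -0.25 ± 0.12 over days. Nor did Ikbkg (-0.29), Rel (0.27) and Nfkbib (0.31) over days, Zfp36 (0.29 per day) and Nfkbia (0.34 per day) without or Icam1 (0.27 per day) and Vcam1 (-0.18 per day) with vitamin C.

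Among 22 measured other acute-phase and complement genes, 3 fell without vitamin C. They were Cp, which encodes the copper carrier ceruloplasmin (-0.78 ± 0.09, adjusted p = 0.00324), Serpina3n, a protease inhibitor (-0.61 ± 0.10, adjusted p = 0.0163), and Steap4, a metal reductase (-0.50 ± 0.10, adjusted p = 0.0402). Cp went from 6.30 to 4.09 without and from 5.42 to 4.48 with vitamin C. Cd55, which protects cells from complement, rose with vitamin C (0.50 ± 0.08, adjusted p = 0.00525). Apcs (0.36) and Saa1 (0.25) without vitamin C, Saa1 (0.27), Hp (-0.32) and Serpina3n (-0.33) with it, and C1s1 (-0.34), Cp (-0.49), C2 (0.23) and Saa2 (0.32) over days did not pass.

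Of 16 measured genes of the prostaglandin pathway, the gene of the synthase that follows Ptgs2, Ptges, fell without vitamin C (-0.55 ± 0.07, adjusted p = 0.00425). Its values were 6.64, 5.79, 5.58 and 4.86 without and 5.99, 5.83, 5.96 and 6.03 with vitamin C, level in the treated cells. Pla2g4a, which releases the substrate of Ptgs2 from membranes, fell as well without vitamin C (-0.41 ± 0.06, adjusted p = 0.0075). Pla2g2a (0.06) and Hpgd (0.08) without vitamin C, Ptges2 (-0.17), Pla2g4a (-0.13), Hpgd (0.17) and Slco2a1 (0.22) with it, and Abcc4 (-0.30), Ptger3 (-0.23), Hpgd (0.27) and Slco2a1 (0.43) over days did not pass.

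The 8 genes differed in how closely they followed their common course. With each gene scaled to its own mean and SD, the mean profile was highest in the untreated array of day 3 (1.68) and lowest in that of day 6 (-1.02), and ran from 0.22 to -0.82 with vitamin C. The correlation with that profile over the 8 arrays, which each gene itself enters, was 0.974 for Il6, 0.963 for Ccl2, 0.949 for Cxcl1, 0.942 for Ccl7, 0.933 for Cxcl5, 0.909 for Lcn2, 0.861 for Saa3 and 0.537 for Ptgs2.

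Other genes were compared with this profile, leaving out predicted genes, clone names and olfactory receptors. Of the 666 that remained with an SD of at least 0.5 over the 8 arrays, Slit2 followed the profile most closely (Pearson's r = 0.981). It encodes a guidance molecule, and its values were 6.76, 6.10, 5.20 and 4.39 without and 5.59, 4.80, 4.92 and 4.84 with vitamin C. Next came Ltbp2 (0.980), a matrix protein gene, Slfn2 (0.977), Ifit1 (0.976), an interferon-stimulated gene, Sema3c (0.971), a semaphorin gene, and Olr1 (0.971), a scavenger receptor gene. Their changes per day without vitamin C ran from -1.07 for Ifit1 to -0.54 for Olr1. These 6 were picked for following the profile, so a fall without vitamin C was built into the choice and tests nothing.

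Among the same 666 genes, those with the most opposite course were Otx2 (-0.932), a transcription factor gene of the epiblast and forebrain, Ankrd37 (-0.916) and Dzank1 (-0.914). Otx2 rose from 4.62 to 6.78 without and from 5.45 to 7.17 with vitamin C. These correlations rest on 8 arrays that share the same days, and they describe likeness only.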

How the data were processed

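Gene expression was measured on 8 whole-transcript arrays from 100 ng total RNA each. Per the submitters' processing notes, the authors used RMA and Partek to make the deposited log2 values. No version, background option or genome build is given in the sources used here. The scale was read as log2 because the largest value, 13.8, lies above the natural log (11.1) and under the log2 (16.0) of the largest 16-bit reading. The number of arrays limits the precision. Array medians lay between 4.33 and 4.40, correlations between arrays between 0.977 and 0.994, and no array repeated another.

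Of 28853 probe sets, 21789 had 1 symbol in the platform annotation, 1621 several, and 5443 were not listed. The probe set with the highest mean was used for each of 19938 genes. Tests were two-sided and moderated (limma 3.58.1, R 4.3.3), with p-values adjusted by Benjamini-Hochberg over all genes at a threshold of 0.05. The difference with vitamin C used day as a factor (3 residual degrees of freedom). The changes per day and their difference came from 1 model with a slope for each treatment (4 residual degrees of freedom). Errors are moderated SE. The tests were also run on simulated arrays with known changes and independent noise. That run cannot show how the p-values behave where days depend on each other. The arrays of a day share the day in the labels, so that pairing comes from the labels. Their deviations from the means of their treatments had correlations of 0.371, 0.18, 0.125 and 0.475 (days 3 to 6).

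The genes, the 10 other lists (6 of the inflammatory response, 4 of cell markers) and the naming rule were chosen with earlier results of these data known. The rule named the 8 genes, list genes past the threshold, the 2 largest rises and falls of each inflammatory list, and the genes most like the mean profile (6) and most unlike it (3). Alternatives were other normalization, filters, eBayes options, thresholds, uses of day, and leaving out arrays. Tables and plots used Python 3.11.15, pandas 2.3.3 and matplotlib 3.10.9.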

Additional observations from a re-analysis of the deposited data

How the results depend on the processing

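The number of arrays limits all results, since each day has 1 array per treatment. The 6 untreated declines kept their direction in all 13 alternatives, and Ccl2 kept its call in all of them. Leaving out arrays gave 1 to 6 of the 8 genes past the threshold without vitamin C and 0 to 3 with it, and the lowest counts were without the day 6 array. Without the dimmest genes Cxcl1 passed too without vitamin C (adjusted p = 0.0371) and Cxcl5 with it (adjusted p = 0.0485). Over days, 1 gene (Ptgs2) passed with trend and robust options and 1 (Ptgs2) at a threshold of 0.1, against 0. For the interaction 2 passed with trend and robust options, against 0.

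Signs turned for estimates that had not passed. With days or arrays left out in turn, Ccl7 ran from -0.37 to 0.022 over days (the latter without day 3) and the interaction of Ptgs2 from -0.26 to 0.27 (0.019, 0.13 and 0.27 without the untreated array of day 4, that of day 6 and the vitamin C array of day 3). The change per day of Ptgs2 ran from -0.25 to 0.14 without and from -0.24 to 0.17 with vitamin C, and that of Saa3 with vitamin C from -0.13 to 0.21, with the sign turned without the day 3 array of the treatment. The causes were not tested.

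Counts over all genes moved more. Over days 150 became 243 without the dimmest genes, 376 with trend and robust options, 17 with no replicate block (day left out), 291 with day as a number and 384 at a threshold of 0.1, and 3 to 286 with a day left out. For the interaction 13 became 21 with quantile normalization again, 32 without the dimmest genes, 80 with trend and robust options, 20 with day as a replicate block, 42 at a threshold of 0.1, and 0 to 29 with an array left out. For the change per day without vitamin C 349 became 672, 782 and 773 without the dimmest genes, with trend and robust options and at a threshold of 0.1, and 8 to 530 with an array left out. With vitamin C 1722 became 2917 at a threshold of 0.1 and 270 to 1680 with an array left out. The block changed no call among the 8 genes. The alternative for values on a linear scale did not apply.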
